A study of Rattus norvegicus with 2 samples.

Results

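Macrophages of the tissue-resident kind were picked out of single-cell RNA-seq (scRNA-seq) of skeletal muscle by measured genes, and 885 cells were found among 21165 kept barcodes of 23416 deposited. A barcode (1 droplet, usually 1 cell) was kept with at least 500 unique molecular identifiers (UMIs, counted transcripts), at least 200 genes and at most 20% mitochondrial UMIs. It was called a macrophage when Ptprc or Tyrobp (leukocyte genes) was detected, when C1qa, C1qb and C1qc together had at least 5 UMIs, and when Mrc1, Cd163, Folr2 or F13a1 was present. It also had to lack Cd3e (T cells), Cd79a (B cells), Pecam1 (endothelium) and Pdgfra (fibro-adipogenic progenitors, FAPs). The cells were thus chosen by the measured levels of these genes, which are given below as a description. Tissue-resident is the name of the rule, and the markers of the mouse cells given below bear it out only in part.

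The libraries came from 1 rat-mouse chimera and 1 Sprague-Dawley (SD) rat, with 1 library per group. The chimera had developed from an SD rat morula injected with mouse induced pluripotent stem cells (iPSCs) that carried a gene-edited Dmd mdx allele, the dystrophin mutation having been corrected by exon skipping, and a Pax7-nGFP reporter that marks satellite cells. The SD rat was the control without injected cells, and neither the sex nor the age of these animals is given in the sources used here. Whole-body muscle was digested with collagenase II for 90 min, live cells were sorted on a viability dye, and 20000 were loaded on a 10x Genomics 3' kit. The rat and mouse cells of the chimera shared a digestion. The chimera and the SD rat were separate animals and libraries digested for the same time. The study asked which cells of the chimera were mouse; here the question is how macrophages were made up in each animal and species.

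Resident macrophages of muscle lie between fibres and along vessels, clear debris and dying cells, and recycle iron. They make the complement component C1q, take up ligands through scavenger and lectin receptors such as Mrc1, Cd163 and Folr2, and, to a varying degree, present peptides to CD4 T cells on major histocompatibility complex (MHC) class II. Monocytes that enter from blood carry Ccr2 and Plac8 and can take on macrophage genes in the tissue.

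The 885 cells were 332 from the SD rat, 532 rat cells of the chimera and 21 mouse cells of the chimera. Species was called from the share of UMIs on mouse rows, at most 20% for rat and at least 80% for mouse, and 25 more chimera barcodes that met the rule lay between these limits and were left out. Median depth was 8082.5, 9136 and 11068 UMIs per cell. Few members lay near the C1q limit. Among barcodes that met the other criteria 0 had 4 C1q UMIs and 1 had 5 in the SD rat, against 2 and 0 in the chimera. At 3, 6 and 7 C1q UMIs there were 3, 0 and 0 barcodes in the SD rat and 5, 4 and 4 in the chimera. The median member had 97 and 86. The exclusion genes left 332 of 399 barcodes in the SD rat and 578 of 745 in the chimera, and Pecam1 was the one found most often (41 and 118 barcodes). The libraries shared 43 barcode sequences, and 4 of these named a macrophage.

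The chimera reads had been mapped to rat and mouse genes together and the SD rat reads to rat genes alone. In chimera rat macrophages a median of 10.5% of UMIs lay on mouse rows, and 43.5% of these were on 1 ribosomal RNA row, Rn18s-rs5. Rat and mouse rows of a symbol were therefore added. Levels below are UMIs scaled to a total of 1000000 (CPM) over the 16242 symbols annotated in both species. They compare a gene between groups, since 3' counts do not depend on transcript length. Ratios are log2 of CPM plus 5, and their 95% intervals cover counting error only. With 1 library per group no difference between animals was tested, and "higher" or "lower" below compares these libraries.

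The rule's own genes are given as a description, since they chose the cells. C1qa was found in 100.0% of SD rat, 99.6% of chimera rat and 90.5% of chimera mouse macrophages, C1qb in 99.7%, 99.4% and 100.0%, and Mrc1 (the mannose receptor) in 94.6%, 87.6% and 76.2%. Folr2, a folate receptor, was in 97.3% and 94.2% of the rat cells but in 19.0% of the mouse cells, and Cd163, the haemoglobin scavenger receptor, in 67.8%, 63.7% and 14.3%. Pdgfra cells, here and below, were kept barcodes with Pdgfra and no UMI of Ptprc, Tyrobp, C1qa, C1qb, C1qc or Pecam1. That choice left out barcodes with stray macrophage RNA, so low levels of macrophage genes there are in part fixed by it. Mrc1 was in 0.566% and Cd163 in 0.261% of 2297 SD rat Pdgfra cells, at a median depth of 11287 UMIs. The mouse cells were thus weak in Folr2 and Cd163, and F13a1 was in 85.7% of them. Csf1r, the receptor for the survival factor CSF1, had no part in the rule and was found in 94.6%, 91.7% and 85.7% of macrophages, against 31.1% and 42.5% of the other leukocytes of the rat populations and 1.52% of SD rat Pdgfra cells.

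Other cell types left little RNA in the median macrophage, with exceptions in single cells. B-cell markers were in 0 of the SD rat cells and 0.376% of the chimera rat cells, and dendritic-cell markers in 1.21% and 3.76%. FAP markers (Col1a1, Col3a1, Dcn, Lum) took a median of 0.0698% and 0.0368% of UMIs per cell but reached 3.69% and 11.8% in the highest cell. Myofibre markers (Acta1, Ckm, Tnnt3, Myh4) took a median of 0.479% and 0.232%. A total of 23 SD rat and 48 chimera rat cells held over 0.5% FAP or over 2% myofibre UMIs, and the comparison of the rat populations was repeated without them.

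Macrophages made up 3.70% of kept SD rat barcodes (332 of 8980, exact binomial 95% interval 3.32 to 4.11%) and 6.28% of chimera rat barcodes (532 of 8477, 5.77 to 6.81%). Of leukocytes, here any kept barcode with Ptprc or Tyrobp, they were 28.7% (26.1 to 31.4%) in the SD rat and 18.8% (17.4 to 20.3%) among chimera rat cells. This is a loose set. In the SD rat 351 of 1157 such barcodes had no C1q UMI and no exclusion gene, and 685 of 2832 among chimera rat cells. The order of the animals thus depended on the denominator, and leukocytes were 12.9% of kept barcodes in the SD rat and 33.4% of chimera rat barcodes. These shares are of sorted, digested cells. Among species-called chimera cells, mouse cells were 3.80% of macrophages (21 of 553, 2.37 to 5.75%) and 18.1% of all kept cells (1868 of 10345, 17.3 to 18.8%). They were 15.8% of the barcodes of the loose leukocyte set that were not macrophages (432 of 2732, 14.5 to 17.2%). The rule was also met by mixed barcodes, which were 4.33% of chimera macrophage barcodes and 15.1% of all kept chimera barcodes.

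Resident genes and chemokines were among those higher in macrophages than in the other leukocytes. The comparison group was leukocytes with no C1q UMI and none of the exclusion genes (351 SD rat and 685 chimera rat cells, medians of 5234 and 6823 UMIs), and the rule's own genes were left out. At least 2-fold higher in macrophages were 571 of 5998 genes in the SD rat (9.52%) and 479 of 6144 among chimera rat cells (7.8%). Since C1q chose the cells, these counts describe the choice. Of 11 resident or perivascular genes that passed the filter on low values, 10 were at least 2-fold higher in each library, with medians of 2.46 and 2.70 on the log2 scale. Selenop, a selenium carrier, stood at 6851 CPM in SD rat macrophages against 146 in the other leukocytes, and at 5470 against 130 in chimera rat cells. Ltc4s, which makes leukotriene C4, stood at 1095 against 12.6 CPM and at 861 against 14.5 CPM. Stab1, a scavenger receptor, stood at 256 against 0.523 CPM in the SD rat. Of 12 chemokine genes 10 were at least 2-fold higher in each library, among them Pf4 (log2 ratios of 4.11 and 4.17) and Ccl4 (4.09 and 3.23). Of 11 lysosome genes 8 and 7 were at least 2-fold higher, of 6 iron-handling genes 4 and 3, and of 7 Toll-like receptor genes 4 and 3. Monocyte genes pointed the other way: Plac8 was at 13.6 against 1240 CPM in the SD rat, and Vcan at 21.7 against 504.5.

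Macrophages of each population ranged widely in MHC class II. Of the 5 genes summed here, Cd74 encodes the invariant chain that guides class II through the cell, and RT1-Da, RT1-Db1, RT1-Ba and RT1-Bb encode the chains of the rat RT1-D and RT1-B molecules. Together they took a median of 1.85% of UMIs in SD rat cells (quartiles 0.0126 and 5.46%, highest 11.9%), 3.90% in chimera rat cells (0.254 and 6.93%, highest 15.5%) and 3.11% in chimera mouse cells (1.17 and 4.69%, highest 7.13%). None of the 5 genes had a UMI in 74 SD rat, 47 chimera rat and 0 mouse cells. In Pdgfra cells, which do not present on class II at rest, the summed share was 0.00231% in the SD rat and 0.00611% among chimera rat cells. Pdgfra cells were chosen without leukocyte and C1q UMIs, so this low share is a description.

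**Figure D1:**
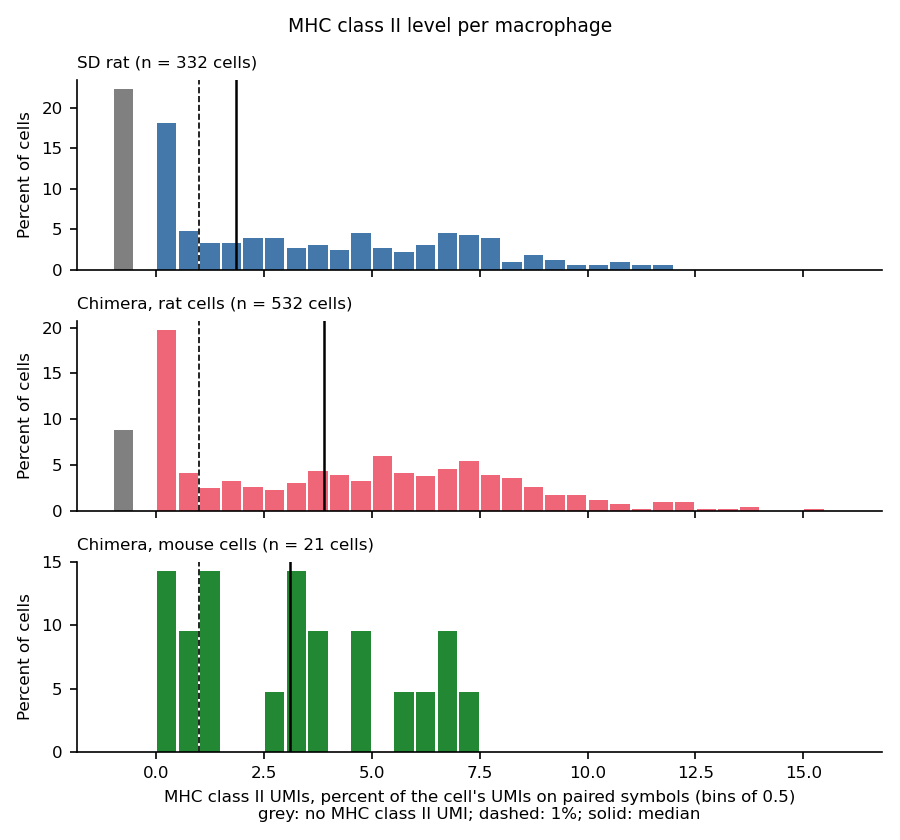
Percent of macrophages (y axis) by the share of a cell's UMIs on 5 MHC class II genes (x axis, bins of 0.5%) in SD rat, chimera rat and chimera mouse cells. The grey bar holds cells with no such UMI (74, 47 and 0 cells), the dashed line is the 1% limit and the solid line the median (1.85%, 3.90% and 3.11%); each rat population has a low group and a broad high range.

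A limit of 1% of UMIs split each population into MHC class II-high and MHC class II-low cells, which are ranges of 1 measure and not cell types. The high range held 182 of 332 SD rat cells (54.8%, 49.3 to 60.3%), 358 of 532 chimera rat cells (67.3%, 63.1 to 71.3%) and 16 of 21 mouse cells (76.2%, 52.8 to 91.8%). Between 0.5% and 2%, around the limit, lay 38 SD rat, 52 chimera rat and 5 mouse cells. High and low cells were alike in depth, with medians of 7838.5 and 8548.5 UMIs in the SD rat and 9034 and 9476.5 among chimera rat cells.

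The class II genes are known to share upstream elements, the X and Y boxes, through which the transactivator Ciita is recruited, so the bases before 4 of them are shown to let their common letters be seen. They are from RefSeq on GRCr8, which is not the build of the counts, and each line holds the 130 bases before the annotated start, 5' to 3' along the gene. Capitals mark GNNACNGAT, searched here for the X box, and CTGATTGG, for the Y box, on either strand; the patterns do not overlap. Of 33469 windows of 250 bases before a start, 6.42% held the first pattern and 3.19% the second.
RT1-Da, chr20:4515285-4515414, plus strand: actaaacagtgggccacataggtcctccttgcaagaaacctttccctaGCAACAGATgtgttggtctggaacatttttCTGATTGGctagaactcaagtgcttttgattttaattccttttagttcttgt
RT1-Db1, chr20:4560163-4560292, minus strand: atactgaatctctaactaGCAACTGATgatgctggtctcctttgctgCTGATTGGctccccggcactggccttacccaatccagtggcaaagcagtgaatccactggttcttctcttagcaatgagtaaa
RT1-Ba, chr20:4576927-4577056, plus strand: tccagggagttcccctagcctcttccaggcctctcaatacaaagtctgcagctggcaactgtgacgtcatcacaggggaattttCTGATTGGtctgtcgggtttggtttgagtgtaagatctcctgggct
RT1-Bb, chr20:4604119-4604248, minus strand: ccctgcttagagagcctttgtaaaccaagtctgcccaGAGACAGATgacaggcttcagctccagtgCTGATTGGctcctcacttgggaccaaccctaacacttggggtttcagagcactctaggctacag

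The Y box letters began 52, 83, 46 and 64 bases before the start of RT1-Da, RT1-Db1, RT1-Ba and RT1-Bb. The X box letters began 82, 112 and 93 bases before RT1-Da, RT1-Db1 and RT1-Bb and again 185 bases before RT1-Bb, and were not found in the 250 bases before RT1-Ba. RT1-DMa, a subunit of the class II peptide editor, held the X box letters 97 bases before its start, and Cd74 held neither pattern in its window. These matches are descriptions of letters.

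MHC class II-high and -low cells also differed in other genes, in part the same ones in both libraries. Class II-high cells had more RNA of the peptide editor genes RT1-DMa and RT1-DMb and of Cst7, Scimp and Il1rn, and class II-low cells had more of the resident genes Fcna, Colec12 and Selenop. F13a1, a gene of the rule, was also higher in class II-low cells. In the SD rat 132 of 5483 genes were at least 2-fold higher in class II-high cells (2.41%) and 215 at least 2-fold lower (3.92%), and among chimera rat cells 122 (2.09%) and 347 (5.95%) of 5834, with the 5 summed genes left out. Of 5228 genes compared in both, 57 were high in both, which is 47.5% of the 120 genes of the SD rat and 60.0% of the 95 of the chimera. On the low side 132 were shared, 68.4% of 193 and 52.2% of 253, and 0 genes were past 2-fold in opposite directions.

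On the high side, RT1-DMa and RT1-DMb, the peptide editor that loads class II, had log2 ratios of 1.47 and 1.68 in the SD rat and 2.05 and 1.60 in chimera rat cells. Cst7, cystatin F, an inhibitor of lysosomal proteases, stood at 120 CPM in high and 12.4 CPM in low SD rat cells, and at 143 and 11.9 CPM in chimera rat cells. Scimp, an adaptor that binds MHC class II, stood at 126 and 18.7 CPM and at 168 and 26.8 CPM. Napsa, an aspartic protease, stood at 63.8 against 2.67 CPM and at 135 against 3.72 CPM. The high cells of both animals thus held several-fold more of each of these genes. Il10, an anti-inflammatory cytokine, was at 1275 against 570 CPM and at 605 against 305 CPM, and Vegfa, the endothelial growth factor, at 179 against 33.8 CPM and at 97.5 against 25.3 CPM. Irf8, a transcription factor of monocyte and dendritic lineages, differed in size, with 1.73 in the SD rat and 0.36 in the chimera. Dendritic-cell markers passed the filter in neither library.

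On the low side, Fcna, ficolin A of the lectin complement pathway, stood at 1850 CPM in class II-low against 512 CPM in class II-high SD rat cells, and at 2320 against 557 CPM in chimera rat cells. Colec12, a scavenger lectin, stood at 218 against 61.3 CPM and at 260 against 53.7 CPM. Selenop was at 9166 against 4721 CPM and at 9575 against 3509 CPM, and F13a1, coagulation factor XIII A, at 905 against 390.0 CPM and at 1192 against 315 CPM. Dnase1l3, a secreted nuclease, was at 90.6 against 8.99 CPM and at 167 against 30.9 CPM. Cd163 was 411 against 280.4 CPM in the SD rat and 590 against 198 CPM in the chimera. F13a1 and Cd163 are genes of the rule that chose the cells, so their levels are a description. Klf2, a transcription factor of quiescent cells, had log2 ratios of -1.79 and -1.34.

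By list, 10 of 11 resident genes in the SD rat and 11 of 12 in the chimera were lower in class II-high cells, with medians of -0.47 and -1.19. All 5 interferon-induced genes that passed were lower in class II-high cells in each library, with medians of -1.25 and -1.10, and Ifit3 at -1.87 and -2.21. Of the lysosome list 9 of 11 were lower in each library, at medians of -0.37 and -0.61. The median over all genes was -0.02 and -0.12, and 47.1% and 37.2% of all genes lay above 0. Recruited-monocyte genes differed between the libraries, with 0 of 4 above 0 in the SD rat (median -1.15) and 6 of 6 in the chimera. The SD rat side rested on few cells, as 1 class II-low cell held 35 of the 44 Vcan UMIs of that range. Without cells high in FAP or myofibre markers, Fn1 was at 1.10 and 1.14 and Vcan at -0.24 and 0.78. S100a4 kept opposite signs, at -0.36 and 0.46. FAP markers moved with the low side, at list medians of -1.76 and -2.16. The median cell differed little in them: FAP UMIs were 0.0767% in high and 0.0628% in low SD rat cells, and 0.0345% and 0.0443% in chimera rat cells.

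**Figure D2:**
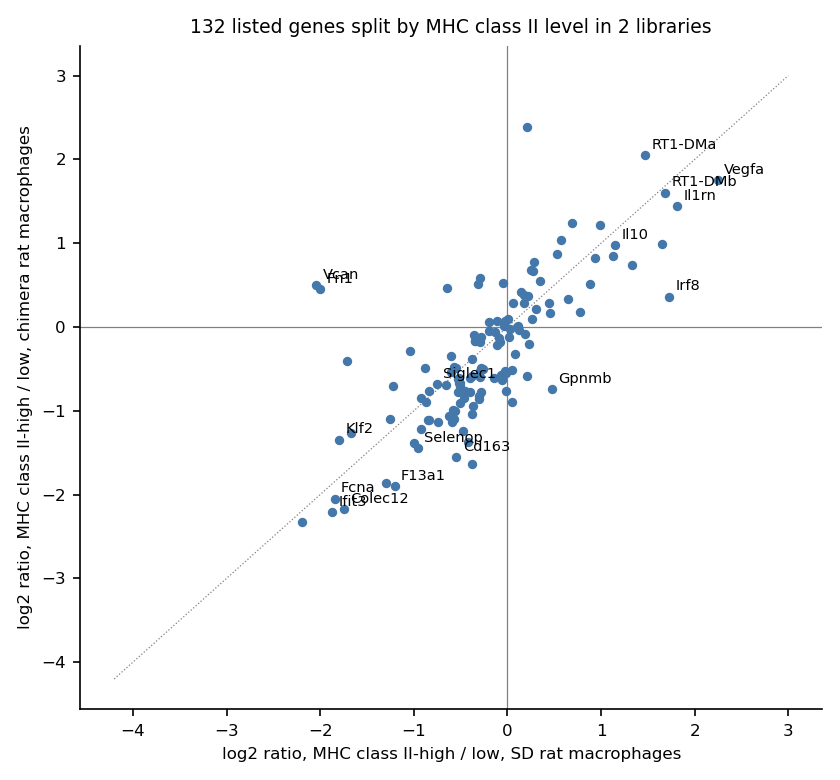
Log2 ratio of CPM plus 5 between MHC class II-high and -low macrophages for 132 listed genes that passed the filter in both rat populations, SD rat on the x axis and chimera rat on the y axis; the dotted line marks equal values. Of these genes 111 have the same sign, with Fcna and Colec12 at the lower left, RT1-DMa and Vegfa at the upper right, and Vcan and Fn1 of opposite sign. The listed genes include those of the rule, such as F13a1 and Cd163. The same-sign share over all genes was not counted, so 111 is a description.

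Rat macrophages of the chimera and of the SD rat were compared next, which asks how macrophages of 1 species differed between the animals. Class II genes and some monocyte genes were higher in the chimera, while chemokines, Tnf and interferon-induced genes were lower. The macrophage lineage genes had a median near 0, with members from -0.71 to 0.48. Of 5556 genes, 135 were at least 2-fold higher in the chimera (2.43%) and 38 at least 2-fold lower (0.684%), around a median of 0.04 on the log2 scale. Of the 135, 97 had over 5% of their chimera UMIs on mouse rows. Among the 3283 genes with 5% or less, 38 were higher and 15 lower, at a median of 0.01.

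The genes of the macrophage lineage had a list median of 0.03 over 10 genes, 5 above and 5 below 0 and 0 past 2-fold. Csf1r was at 999 CPM in the SD rat and 806 CPM in the chimera (log2 ratio -0.31, 95% interval -0.38 to -0.23). Lyz2, lysozyme, was at 5552 and 7730 CPM (0.48, 0.45 to 0.51). Adgre1, which encodes F4/80, was the lowest of the list at 487 and 295 CPM (-0.71, -0.83 to -0.60). Of 10 lineage transcription factors none was past 2-fold, and the highest, Maf at 0.93, had 59.1% of its chimera UMIs on the mouse row.

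All 7 class II genes that passed lay above 0, at a median of 0.54 and a range of 0.39 to 0.61, and none was past 2-fold. Cd74 was at 10320 CPM in the SD rat and 13920 CPM in the chimera (0.43, 0.41 to 0.45), RT1-Da at 6385 and 9615 CPM (0.59, 0.56 to 0.62) and RT1-Bb at 1371 and 2098 CPM (0.61, 0.55 to 0.67). These genes hardly touched mouse rows, with at most 0.436% of chimera UMIs there. Ciita did not pass the filter (6.39 and 13.5 CPM).

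Chemokines were abundant transcripts of these cells and were lower in the chimera for 11 of 12 genes, at a median of -0.50, with 1 past 2-fold. Per cell, the 12 genes took a median of 6.87% of UMIs in the SD rat and 3.95% in the chimera. Cxcl2, which draws neutrophils, was at 23500 CPM in the SD rat and 12390 CPM in the chimera (-0.92, -0.94 to -0.91), and Cxcl1, of the same class, at 19560 and 12060 CPM (-0.70, -0.72 to -0.68). Ccl2, the ligand of Ccr2 that draws monocytes, was at 17540 and 11480 CPM (-0.61, -0.63 to -0.59), and Ccl4 at 7188 and 4358 CPM (-0.72, -0.75 to -0.69). Cxcl10, induced by interferon, was at 1257 and 562 CPM (-1.16, -1.23 to -1.08). Ccl9 was the exception, at 26.8 and 37.6 CPM.

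The chemokine direction was found within both class II ranges: 11 of 12 genes were lower in class II-high cells (median -0.59) and 10 of 12 in class II-low cells (-0.31). In other populations of the same libraries fewer chemokine genes passed the filter. Of these, 5 of 9 were lower in the chimera among other leukocytes (median -0.02) and 5 of 6 in Pdgfra cells (median -0.16). Cxcl1 was higher in the chimera among other leukocytes (2387 and 3284 CPM) and Cxcl2 lower (3095 and 1857 CPM). In Pdgfra cells Ccl2 was lower as well (12930 and 9264 CPM), Cxcl1 differed little (13750 and 12210 CPM), and Cxcl2 stood at 38.0 and 18.5 CPM. Cxcl2 was thus low in Pdgfra cells, whereas Cxcl1 and Ccl2 were high there too. These genes are also known to be induced when tissue is digested, and immediate-early genes had a list median of 0.24 in the chimera; the part of digestion was not tested.

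**Figure D3:**
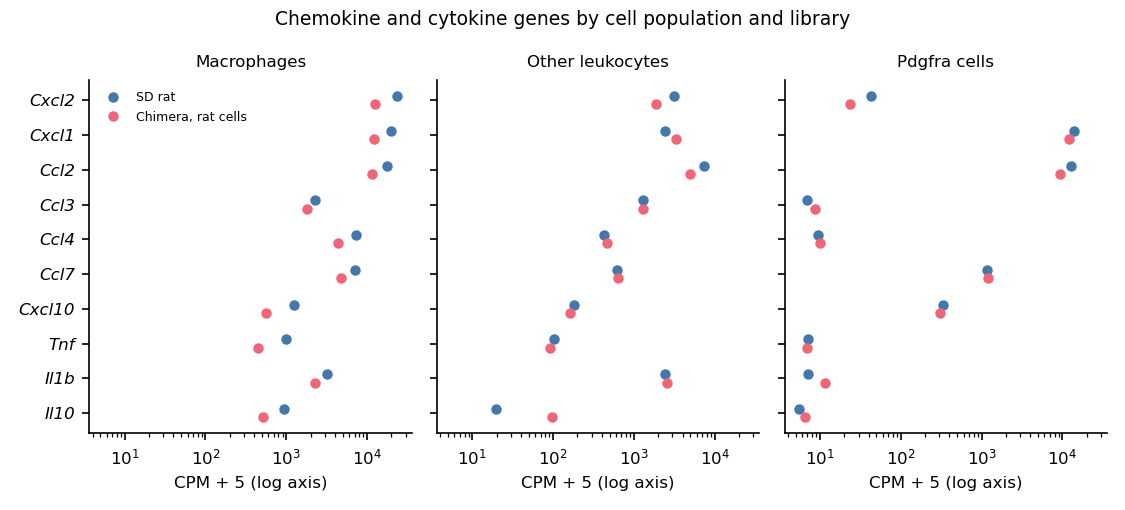
Level of 10 chemokine and cytokine genes as CPM plus 5 (log axis) in macrophages, other leukocytes and Pdgfra cells of the SD rat (blue) and rat cells of the chimera (red), 1 library each. In macrophages the red point lies left of the blue for all 10 genes, whereas among other leukocytes the red point lies right of the blue for Cxcl1 (3284 against 2387 CPM), Ccl4, Il1b and Il10.

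The bases before Cxcl2 and Cxcl1 are shown because these genes are textbook targets of NF-kappaB and were the 2 most abundant chemokines of the SD rat macrophages. Capitals mark GGNNTTTCC, searched on both strands, which 5.19% of the 33469 windows of 250 bases held.
Cxcl2, chr14:17467256-17467385, minus strand: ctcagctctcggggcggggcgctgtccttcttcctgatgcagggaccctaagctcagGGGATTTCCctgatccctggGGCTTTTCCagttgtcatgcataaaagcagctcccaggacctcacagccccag
Cxcl1, chr14:17479322-17479451, minus strand: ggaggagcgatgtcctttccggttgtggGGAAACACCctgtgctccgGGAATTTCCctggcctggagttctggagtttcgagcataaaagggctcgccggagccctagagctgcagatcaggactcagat

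Cxcl2 held the letters 73 and 53 bases before its start, and Cxcl1 held them 83 bases before and, on the opposite strand, 102 bases before. Cxcl10 held them 186 bases before, on the opposite strand, the windows of Tnf and Il1b held no match, and Ccl2, Ccl3 and Ccl4 were not in the table.

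Inflammatory cytokines were lower for 9 of 11 genes, at a median of -0.47, with 1 gene past 2-fold in each direction. Tnf was at 993 CPM in the SD rat and 437 CPM in the chimera (-1.18, -1.26 to -1.09). It was found in 72.9% and 54.9% of cells, and stood at -1.34 in class II-high and -0.82 in class II-low cells. Il1a was at 769 and 404 CPM (-0.92, -1.02 to -0.82), and Il1b at 3166 and 2249 CPM (-0.49, -0.54 to -0.45). Il10, which restrains inflammation, was lower too, at 937.5 and 508 CPM (-0.88, -0.96 to -0.79). Il6 was the exception at 24.7 and 71.3 CPM, but 40.5% of its chimera UMIs were on the mouse row, and on rat rows alone its ratio was 0.76.

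All 5 interferon-induced genes that passed were lower in the chimera, at a median of -0.58. Ifit3 was at 232 and 105 CPM (-1.11, -1.29 to -0.93), and Ifit2 at 122 and 61.4 CPM (-0.93, -1.17 to -0.70). Ifit3 was also lower among other leukocytes, at -2.34. Of the list, 5 of 6 genes were lower there (median -0.81) and 4 of 4 in Pdgfra cells (-0.29).

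Of 9 recruited-monocyte genes annotated in both species, 5 passed the filter, with ratios from 0.27 to 2.86 and 3 past 2-fold. Plac8 and Vcan passed through the chimera alone, so the count is a description. S100a6, a calcium-binding protein, was at 536 and 1144 CPM (1.09, 1.00 to 1.18). Plac8 was at 13.6 and 130 CPM (2.86, 2.46 to 3.26) and was found in 2.11% of SD rat and 10.9% of chimera rat cells, or 0.301% and 3.39% with each cell thinned to 1000 UMIs. In Pdgfra cells Plac8 was found in 7.97% and 6.56%, and in other leukocytes in 33.9% and 47.6%. Vcan, a matrix proteoglycan of monocytes and FAPs, was at 21.7 and 121 CPM (2.23, 1.88 to 2.59), and 68.6% of its 51 SD rat UMIs came from 1 cell.

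A minority of cells held more than 1 of these monocyte genes. At least 2 of Plac8, Vcan, Fn1 and Ccr2 were found in 8 of 332 SD rat cells (2.41%, 1.05 to 4.69%) and in 67 of 532 chimera rat cells (12.6%, 9.90 to 15.7%). The genes were picked from the list, and Plac8 and Vcan passed the filter through the chimera alone, so these counts are a description. Cells were not thinned here, and whether the genes met more often than their separate frequencies give was not tested. In the chimera 55 of the 67 cells were class II-high. The class II-high share without them was 54.3% in the SD rat and 65.2% in the chimera, and 10 of 12 chemokines lay below the median gene, at a list median of -0.42. Fn1, fibronectin, was at 0.82 over all cells and 2.36 without the cells high in FAP or myofibre markers, and which of these markers bears on it was not tested.

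The resident list moved slightly the other way, with 8 of 11 genes below 0, a median of -0.17 and 0 past 2-fold. Stab1 had the lowest ratio, at 256 and 183 CPM (-0.48, -0.63 to -0.32), and Selenop was at 6851 and 5470 CPM (-0.33, -0.35 to -0.30). Fcna was at 1153 and 1127 CPM (-0.03, -0.10 to 0.03). Within class II-low cells 10 of 12 resident genes lay above 0, at a median of 0.20, so the direction differed between class II-low cells and all cells.

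**Figure D4:**
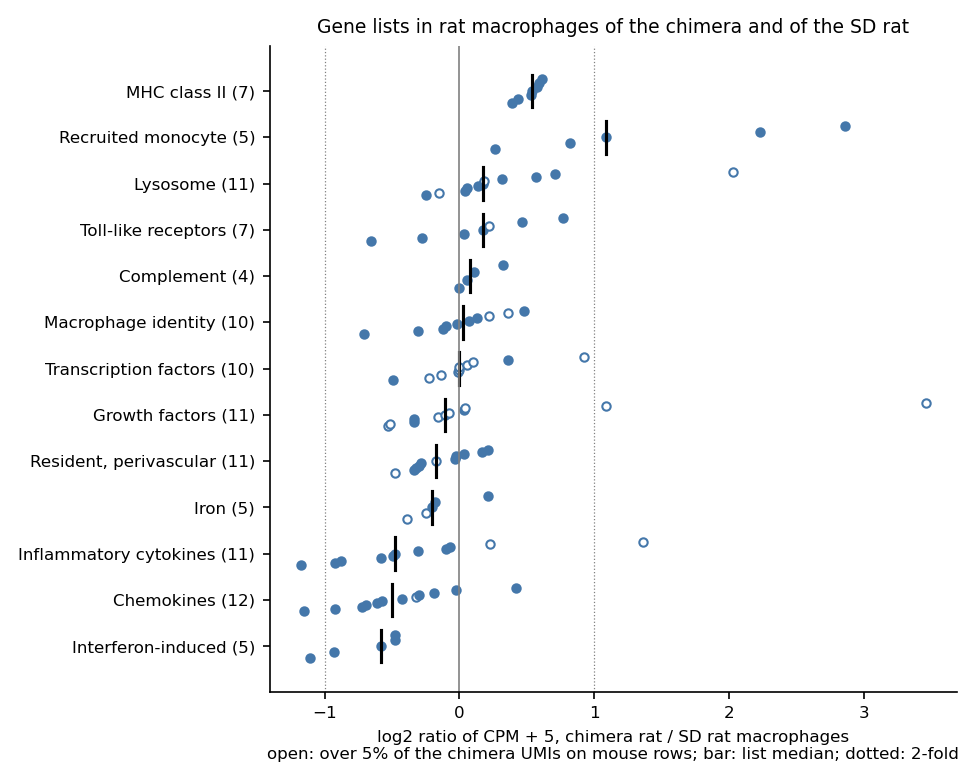
Log2 ratio of CPM plus 5 between chimera rat and SD rat macrophages (x axis) for genes of 13 lists (rows, with the number that passed the filter). Each point is a gene, open where over 5% of its chimera UMIs lay on mouse rows, and the bar is the list median; class II (0.54) and recruited monocyte genes (1.09) lie to the right, and cytokines, chemokines (-0.50) and interferon-induced genes (-0.58) to the left.

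Lists of housekeeping functions had medians near 0. Of 11 lysosome genes 9 were above 0 at a median of 0.17, and 1 was past 2-fold, at 2.03. The highest ratio of this list was also past 2-fold in other leukocytes (3.02) and in Pdgfra cells (2.38). Ctsd, cathepsin D, was at 184 and 304.5 CPM (0.71, 0.55 to 0.87). Complement (median 0.08), Fc receptors (0.03), iron handling (-0.20) and Toll-like receptors (0.17) held no gene past 2-fold, and Tlr2, which senses bacterial lipoprotein, was at 828 and 525 CPM (-0.65). Of the lipid-associated list, Spp1, osteopontin, was at 14.1 and 85.9 CPM (2.26), found in 1.51% and 5.83% of cells. Nrg1, a growth factor, was at 5.53 and 111 CPM (3.46, 2.99 to 3.88) and came from 6 and 44 cells.

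The genes of largest ratio differed alike in the other populations of the libraries. Lars2 was highest, at 6.74 in macrophages, 5.43 in other leukocytes and 6.64 in Pdgfra cells, with 99.5% of its chimera UMIs on the mouse row. Gphn was at 0 in the SD rat and 265 CPM in the chimera, all of it on the mouse row. At the other end, Hs6st3 was at -5.12 in macrophages, -6.72 in other leukocytes and -6.33 in Pdgfra cells, and Serf2 at -1.65, -1.60 and -1.51. Atp13a4 was at 150.3 CPM in SD rat and 0 in chimera rat macrophages, at 96.7 and 0.433 CPM in other leukocytes, and at 92.6 and 0.106 CPM in Pdgfra cells. Col19a1 was different: it was in 31.0% of SD rat macrophages (133 CPM) and 0.940% of chimera rat macrophages (1.68 CPM), with 0.348% and 1.08% of Pdgfra cells and 0.0% and 2.19% of other leukocytes. The part of the mapping in Col19a1 was not tested.

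Beside these differences, myofibre markers were lower in chimera macrophages for 4 of 4 genes (median -0.87), and Hbb-bs, a haemoglobin gene, was found in 16.2% of chimera rat macrophages, wholly on its mouse row, and in 0 SD rat macrophages. Myofibre markers were also lower for 4 of 4 genes among other leukocytes (-0.84) and in Pdgfra cells (-0.32), and erythroid markers were found in 17.1% of chimera rat other leukocytes and 16.2% of Pdgfra cells. Their part in the results was not tested. Without the cells high in FAP or myofibre markers, 11 of 12 chemokines lay below the median gene, at a list median of -0.54.

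The 21 mouse macrophages held less RNA of most resident genes and more of some monocyte genes than the rat macrophages. The name tissue-resident is thus borne out only in part for these mouse cells. They were compared with the rat macrophages of the same library, where digestion, sorting and sequencing were shared. Of 6008 genes, 881 were at least 2-fold higher in mouse cells (14.7%) and 1554 at least 2-fold lower (25.9%). Species, mapping and gene annotation cannot be told apart in such a ratio, and Rpl37, a ribosomal protein gene, had the highest ratio (3261 and 26.7 CPM). Named genes are therefore given as levels, first in mouse and then in rat cells.

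Of 11 resident genes that passed, 7 were at least 2-fold lower in mouse cells and 1, Cbr2 (184 and 40.9 CPM), at least 2-fold higher, with a list median of -1.84. Fcna passed the filter through the rat cells alone, so this count is a description. Fcna was at 24.2 and 1127 CPM, all of it from 1 mouse cell (4.76% of cells), Clec10a, a lectin, at 58.1 and 850.3 CPM, Cd163 at 43.6 and 325 CPM, and Igf1, a growth factor for muscle, at 58.1 and 404 CPM. Selenop was at 1085 and 5470 CPM. F13a1 was near in level, at 446 and 598.5 CPM, as was Mrc1, at 397 and 671 CPM. Cd163, F13a1 and Mrc1 helped choose the cells, so their levels are a description.

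Of 6 recruited-monocyte genes that passed, 3 were at least 2-fold higher in mouse cells, at a list median of 1.09. Ccr2 passed the filter through the mouse cells alone, so the count is a description. Ccr2 was at 208 and 19.7 CPM and was in 66.7% and 7.89% of cells, or 19.0% and 1.13% at 1000 UMIs per cell. Ccr2 had 0 UMIs in mouse Pdgfra cells, a median of 15458.5 UMIs deep, and was in 0.339% of rat Pdgfra cells, at 12550 UMIs. Ly6c2, a mouse monocyte antigen that has a mouse row only, was at 179 CPM in 47.6% of mouse macrophages and 0 in rat macrophages. Fn1 was at 969 and 185 CPM. Among genes of other lists, Spp1 was at 1648 and 85.9 CPM, Cd14, the lipopolysaccharide co-receptor, at 4909 and 307 CPM, and Il1b at 9367 and 2249 CPM. At least 2 of Plac8, Vcan, Fn1 and Ccr2 were in 16 of 21 mouse cells (76.2%, 52.8 to 91.8%) against 12.6% of the rat cells. Ccr2 is among these genes and the cells were not thinned, so this count too is a description.

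Class II of the mouse type was read through the paired mouse genes. The pair of RT1-Ba (H2-Aa) was at 6256 CPM and that of RT1-Bb (H2-Ab1) at 5742 CPM in mouse cells, against 4173 and 2098 CPM in rat cells, and Cd74 was at 14250 and 13920 CPM. The pair of RT1-Da, H2-Ea, had 0 UMIs in the 21 cells, which allows up to 14.5 CPM by 3 counts. No UMI of the EGFP row, the reporter, was found in any chimera macrophage.

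**Figure D5:**
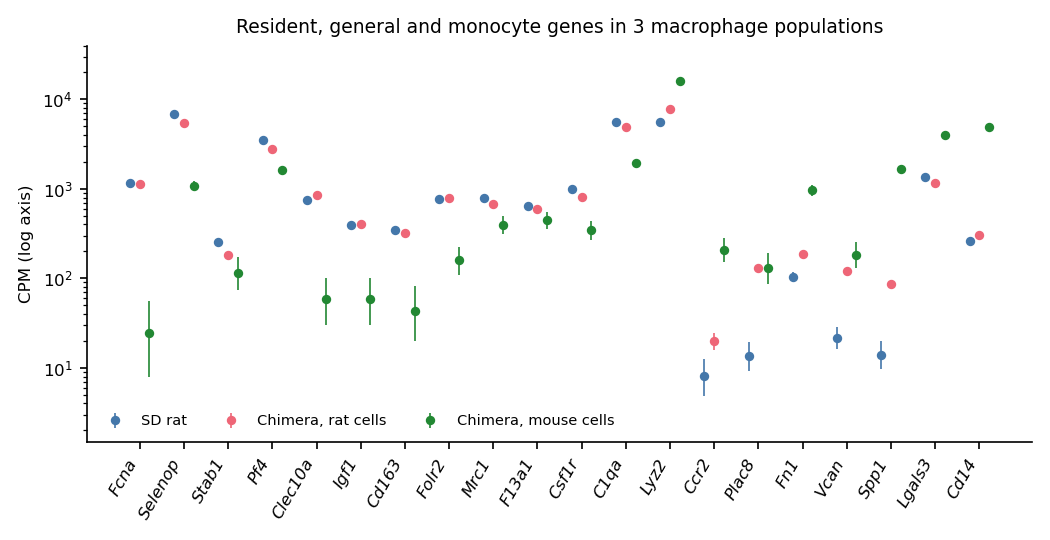
CPM (log axis) of 20 resident, general and monocyte genes in SD rat (blue, 332 cells), chimera rat (red, 532 cells) and chimera mouse macrophages (green, 21 cells), with 95% Poisson intervals for counting error. The rat populations lie close for the resident genes at the left, the mouse cells lie below them from Fcna (24.2 CPM) to Folr2, and above them for Ccr2 (208 CPM), Fn1, Spp1 and Cd14.

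Lyve1, a hyaluronan receptor of perivascular macrophages, had no row under its symbol among the rat genes and could be read through its mouse row in the chimera alone. It was found in 130 of 532 chimera rat macrophages (24.4%, 46.7 CPM), in 3.80% of other leukocytes (7.15 CPM) and in 0.170% of Pdgfra cells (0.159 CPM). In rat cells these values count UMIs on the mouse row alone and are not the full share of cells with Lyve1. Of the 21 chimera mouse macrophages, 1 had a Lyve1 UMI. Chimera rat macrophages with a Lyve1 UMI (130) were set against those without (401), after 1 shallow cell was dropped. The compared genes were thinned to 1000 UMIs per cell. Lyve1 itself was called at full depth, so which group a cell fell in can depend on its depth. Of 3242 genes 140 were at least 2-fold higher in the Lyve1 cells (4.32%) and 127 at least 2-fold lower (3.92%). Colec12 was at 269 and 89.8 CPM, Emp1, a membrane protein, at 1608 and 696 CPM, and Fcna at 2115 and 973 CPM. Cd86, a costimulatory ligand, was at 61.5 and 162 CPM and Cxcr4 at 61.5 and 207 CPM. Colec12, Emp1 and Fcna were also among the genes of class II-low cells. Lyve1 itself was at a log2 ratio of -1.48 between class II-high and -low cells.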

How the data were processed

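The deposited values were raw UMI counts per gene and barcode, which the authors made with Cell Ranger 7.1.0 from 10x 3' libraries (submitters' notes name mRatBN7.2 and GRCm39). The chimera was mapped to 23373 rat genes, 25906 mouse genes and EGFP, the SD rat to the rat genes alone. Depth was 70957559 UMIs in 10117 SD rat barcodes and 118872850 in 13299 chimera barcodes. The members, gene lists and limits were chosen with earlier results of these data known.

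Counts were summed over the cells of each population, and rat and mouse rows of a symbol were added, with 7 class II and other pairs set by hand. Genes were compared at 20 CPM or more and in 5% or more of cells in either group, with a pseudocount of 5 CPM, and 2-fold was the limit of a called gene. Named genes were those of the lists and, per comparison, the 10 highest and 10 lowest with at least 20 UMIs, in at least 10% of cells and at most 10% of UMIs from 1 cell. Conditional binomial, Clopper-Pearson and Poisson intervals (scipy 1.17.1) cover counting error only. The ratio script was tested on simulated data. Doublets were not removed in the main values; Scrublet (scanpy 1.11.5, expected rate 8%) served as an alternative. Cell type came from the rule, with no clustering. Of the rat rows 3156 carry an identifier only, and 0 of these matched the RefSeq gene table, so 18 of 229 listed genes had no rat row under their symbol. Promoters were from RefSeq (GRCr8).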

Additional observations from a re-analysis of the deposited data

Results flagged for a closer look

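Among listed genes, 6 differed in sign between the libraries when class II-high and -low macrophages were compared, with both counting intervals away from 0; the difference between the animals was not tested. Vcan was at -2.04 in the SD rat and 0.50 in the chimera, and Fn1 at -2.003 and 0.451. The SD rat values rested on few cells: 1 class II-low cell held 35 of the 44 Vcan UMIs and 80 of 194 Fn1 UMIs was the most in 1 cell. Without the cells high in FAP or myofibre markers, Fn1 was at 1.10 and 1.14, on the same side in both libraries, and Vcan at -0.24 (95% interval -1.13 to 0.71) and 0.78.

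Gpnmb was at 0.48 and -0.74, and S100a4 at -0.30 and 0.58, and both kept these signs without those cells (0.51 and -0.90, -0.36 and 0.46). Osm was at -0.65 and 0.46. Cxcl2 was at -0.113 and 0.071, a small difference, and at -0.17 and -0.03 without those cells.

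Lyve1, which only the mouse rows of the chimera name, stood at 46.7 CPM in chimera rat macrophages, above the 0.722 CPM that 3 counts give there. The SD rat library has no row to compare it with.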

How the results depend on the processing

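No paired analysis was possible because each group is 1 library. With 1 animal per group every value describes these libraries alone, and the mouse values rest on 21 cells. The macrophage share of chimera rat cells was 5.74% with at most 10% mitochondrial UMIs and 7.49% with species called at 10% and 90%, and the mouse share of chimera macrophages was 8.26% under the latter, where many rat cells were lost because their mouse-row share passed 10%. Counts past 2-fold moved with the filter and pseudocount. The 173 genes between the rat populations became 102 with 20 CPM added, 64 at 100 CPM or more, 343 without a filter and 53 without genes of split UMIs (38 higher, 15 lower). The 2435 genes between species became 831 at 100 CPM, 3998 without a filter and 1379 without genes of split UMIs. Against other leukocytes, 1352 and 1088 genes became 818 and 628 with 20 CPM added and 546 and 455 at 100 CPM. Of the monocyte genes, 9 of 9 lay above the median gene without a filter, against 5 of 5. The Lyve1 split gave 267 genes, 135 with 20 CPM added, 83 at 100 CPM and 2472 without a filter.

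The following alternatives were chosen after seeing the data. The class II-high share was 48.2% of SD rat and 61.7% of chimera rat cells with the limit at 2%, and 71.4% of chimera rat cells with it at 0.5%. The class II split gave 165 and 246 genes with 20 CPM added, against 347 and 469. Between the rat populations, 324 genes were past 2-fold in class II-low cells, 2 of 7 class II genes lay above the median gene in class II-low cells (7 of 7 over all cells), 2 of 4 monocyte genes there and 1 of 3 without cells of 2 or more monocyte genes, against 5 of 5, and 4 of 12 resident genes lay below it in class II-low cells, against 9 of 11. The class II ranges were set on 5 of the 7 class II genes and the removed cells on monocyte genes of the list, which fixes these falls in part. The chemokine count was within 1.5 times of 11 in every alternative run. That limit is loose for a list of 12 genes, since no count could pass it on the upper side. Among named genes past 2-fold between the rat populations, Cxcl10 (-0.45), Tnf (-0.82), Ifit3 (-0.70) and S100a6 (0.69) were within it in class II-low cells, and Tnf (-0.95), Ifit3 (-0.89) and S100a6 (0.48) without cells of 2 or more monocyte genes.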
